A study of Drosophila melanogaster with 12 samples.

Results

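The 3 libraries described here are those of S2 cells treated with the solvent DMSO alone, out of 12 libraries in the series. They were chosen by their treatment label, and their gene counts were described across all 17494 genes of the table. S2 is an established line grown from Drosophila melanogaster embryos. In the same experiment, S2 cultures received TMPyP4, a porphyrin that binds G-quadruplex folds of nucleic acid, at 25, 50 or 100 µmol/L, with 3 libraries at each concentration. All cultures were sampled after 48 hours. The labels give the DMSO groups a value of 100 µg/L, and what it refers to is not stated. All 12 libraries share the cell line, the culture medium and a preparation mixed with zebrafish RNA. They were stranded libraries of polyadenylated RNA. How zebrafish reads were set aside is not stated in the sources used here, and their part in the counts of conserved genes was not tested. The labels do not say whether the replicates came from separate cultures, so their spread may be technical.

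S2 cells are widely used as a model of Drosophila blood cells, the hemocytes. Most hemocytes of a larva are plasmatocytes, which engulf microbes and dying cells and lay down basement membrane. Crystal cells carry the prophenoloxidases of melanisation, and lamellocytes wrap large parasites. GATA factors such as Serpent (srp) act early in the blood lineage, and the RUNX factor Lozenge (lz) directs crystal cell fate.

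The DMSO libraries held 8559765, 7711896 and 9241109 gene counts in replicates 1, 2 and 3, and all triplets of values below keep that order. In each, 8758 to 9036 genes had at least 1 count. Levels are given as TPM, counts per kilobase of exonic length scaled to 1000000 per library, so that genes can be compared with each other. A gene is called on at 1 TPM or more in all 3 libraries, silent with at most 3 counts in each of the 3, and low otherwise. A level of 3 counts corresponds to 0.325 to 0.389 counts per 1000000 (CPM), so silence means not detectable above that depth. Such a floor covers counting error only.

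By these limits 6790 genes (38.8%) were on, 1601 were low and 9103 (52.0%) were silent. Of 13836 protein-coding genes, 6575 (47.5%) were on and 5938 (42.9%) were silent. Those shares are the background for the counts in the lists of protein-coding genes below. Noncoding RNA genes were mostly silent in these polyadenylated libraries, with 148 of 2490 on, and no tRNA gene of 312 was on. Expressed protein-coding genes lay on every large chromosome arm, from 44.6% of genes on 2L to 51.9% on X. Among the genes that were on, those of the X had a median level of 28.2 TPM, against 28.7 to 35.2 TPM on the large autosomal arms. Genes of the small chromosome 4 were on in 48.1% of 79 cases, with a median of 6.9 TPM among those on. Of 23 protein-coding genes on the Y chromosome, 0 were on and 22 were silent.

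Ribosomal protein genes dominated the transcriptome. Among the 25 most abundant genes, 24 encode cytosolic ribosomal proteins, as do 47 of the top 50 and 71 of the top 100. RpLP1, an acidic protein of the ribosomal stalk, was the highest at 12992.3, 16104.8 and 15664.0 TPM. RpLP2, its stalk partner, and the large-subunit genes RpL8 and RpL35 also stood in the highest 6. Ribosomal protein genes together took 24.7, 28.9 and 27.8% of the gene counts, with replicate 1 the lowest. Of the 87 genes of that list, 83 were on, 1 was low and 3 were silent.

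The other gene among the 25 was mt:lrRNA, the large ribosomal RNA of the mitochondrion, which carries a poly(A) tail. It stood at 17780.2, 10635.6 and 8428.3 TPM and so differed more between libraries than any neighbour in rank. The small mitochondrial ribosomal RNA, mt:srRNA, was barely captured, at 1.37, 1.66 and 0.823 TPM. The mitochondrial messenger RNAs were unequal in level. The cytochrome oxidase subunit mt:CoIII reached 3029.9, 1396.3 and 1754.3 TPM, and the complex I subunit mt:ND2 lay between 11.2 and 20.3 TPM. Of the 37 mitochondrial genome genes 11 were on, and all 22 mitochondrial tRNA genes had 0 counts. Of the 72 nuclear genes for proteins of the mitochondrial ribosome 71 were on, with means from 19.7 to 250.5 TPM.

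**Figure D1:**
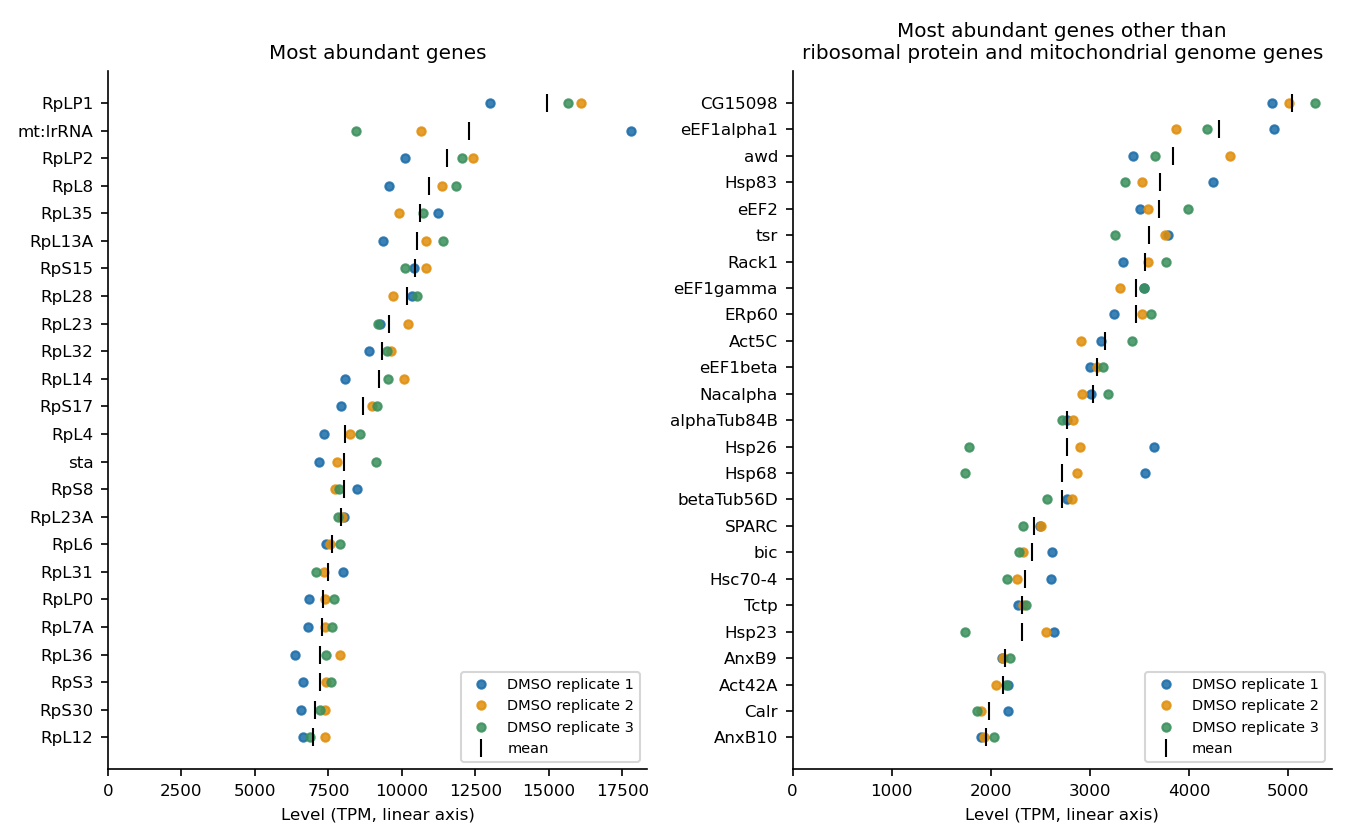
Level of each gene in TPM (linear axis) in DMSO replicates 1, 2 and 3 (points) with their mean (black bar), for the most abundant genes (left) and the most abundant that are neither ribosomal protein nor mitochondrial genome genes (right). The 3 points lie close together for most genes, while mt:lrRNA spreads from 8428.3 to 17780.2 TPM and Hsp68 from 1744.1 to 3555.6 TPM.

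Below the ribosomal proteins came genes of translation, protein folding and the cytoskeleton. These 25 were picked after their levels were seen. CG15098, a gene known here by its annotation number, led them with 5036.7 ± 213.9 TPM (SD, n = 3). The translation elongation factor eEF1alpha1 followed at 4860.1, 3870.0 and 4177.6 TPM. The nucleoside diphosphate kinase awd, the Hsp90 chaperone Hsp83, eEF2 and the actin-severing cofilin tsr came next. The ribosome-associated scaffold Rack1 and the nascent-chain partner Nacalpha were also among them. Heat shock genes were among them too. Hsp68, an inducible Hsp70 relative, stood at 3555.6, 2867.5 and 1744.1 TPM, and the small chaperone Hsp26 at 3641.6, 2895.5 and 1776.3 TPM. Both were highest in replicate 1 and lowest in replicate 3.

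Blood cell markers gave a mixed plasmatocyte pattern. Of 13 plasmatocyte markers, 9 were on, 3 were low and 1 was silent, and their summed level was 646.2, 486.6 and 553.9 TPM. Hemolectin (Hml; FBgn0029167, dm6 3L:13846054-13860001), a clotting protein made by plasmatocytes, stood at 65.9, 50.2 and 59.1 TPM. The apoptotic-cell receptor crq stood at 50.7, 39.0 and 51.0 TPM and the engulfment receptor drpr at 21.2, 15.9 and 23.0 TPM. The collagen IV chains Col4a1 and vkg had means of 227.0 ± 32.8 and 109.4 ± 12.3 TPM (SD, n = 3). All of these were well above the 1 TPM limit in every library.

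The phagocytic receptor NimC1, in contrast, had 0 counts in all 3 libraries. Its relative eater was low, at 1.47, 0.849 and 0.931 TPM. The surface marker He had 3, 4 and 0 counts, and the scavenger receptor Sr-CI had 9, 9 and 11 counts. NimC1 and He were thus at or near the counting floor in libraries with high Hml, and eater (27, 15 and 19 counts) and Sr-CI were low but above it.

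Markers of other blood cells were sparse or shared with other functions. Of the 5 crystal cell markers, PPO2 alone was on, at 2.6, 2.7 and 2.41 TPM, and lz had 0 counts. Among lamellocyte markers, the defining surface protein atilla had 0 counts. The lamellocyte prophenoloxidase PPO3 reached 12.2, 9.81 and 12.3 TPM, higher per length than the crystal cell enzyme PPO2. The filamin cher (61.1, 53.0 and 62.7 TPM) and the kinase msn (59.6, 57.1 and 63.5 TPM) were also on, and both are used by many other cells. Of the progenitor markers, the cytokine receptor dome (53.3, 46.1 and 52.5 TPM) and the thioester protein Tep4 (131.0, 116.2 and 149.4 TPM) were on. The progenitor-niche genes kn and Antp had 0 counts. In bulk RNA, few cells with much RNA of a gene and many cells with little cannot be told apart.

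Markers of unrelated tissues differed by list, beside 42.9% of all protein-coding genes that were silent. The silent members were 6 of 8 neuronal, 6 of 8 fat body and 3 of 5 glial markers. Only 3 of 8 muscle and 0 of 6 epithelial markers were silent. None of 8 neuronal markers was on, and their summed level was 0.104 to 0.646 TPM. The 4 gut markers were silent. Of 8 fat body markers, Yp3 alone was on, at 1.15, 2.2 and 1.04 TPM. In the muscle list, Mef2 was on at 3.17, 1.63 and 2.9 TPM while the muscle myosin Mhc had 3, 1 and 1 counts. The glial transcription factors repo and gcm had 0 counts, although the blood-brain barrier receptor moody was on at 14.2, 7.45 and 9.94 TPM. All 6 epithelial marker genes were on at low levels, with a summed 30.3, 17.6 and 18.8 TPM.

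Among the 6 germ line markers analysed here, 2 were on, and both were high. The germline differentiation factor bam (3R:25243039-25245109) stood at 153.4, 130.3 and 124.7 TPM, above Hml. The piRNA protein aub stood at 59.0, 59.0 and 64.0 TPM. The defining germ cell helicase vas had 1, 0 and 1 counts, and osk had 9, 3 and 7. Both bam and aub overlap 1 gene on the other strand, and whether the counting used the strand is not given in the sources used here. The part of the overlapping genes in these 2 levels was not tested.

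**Figure D2:**
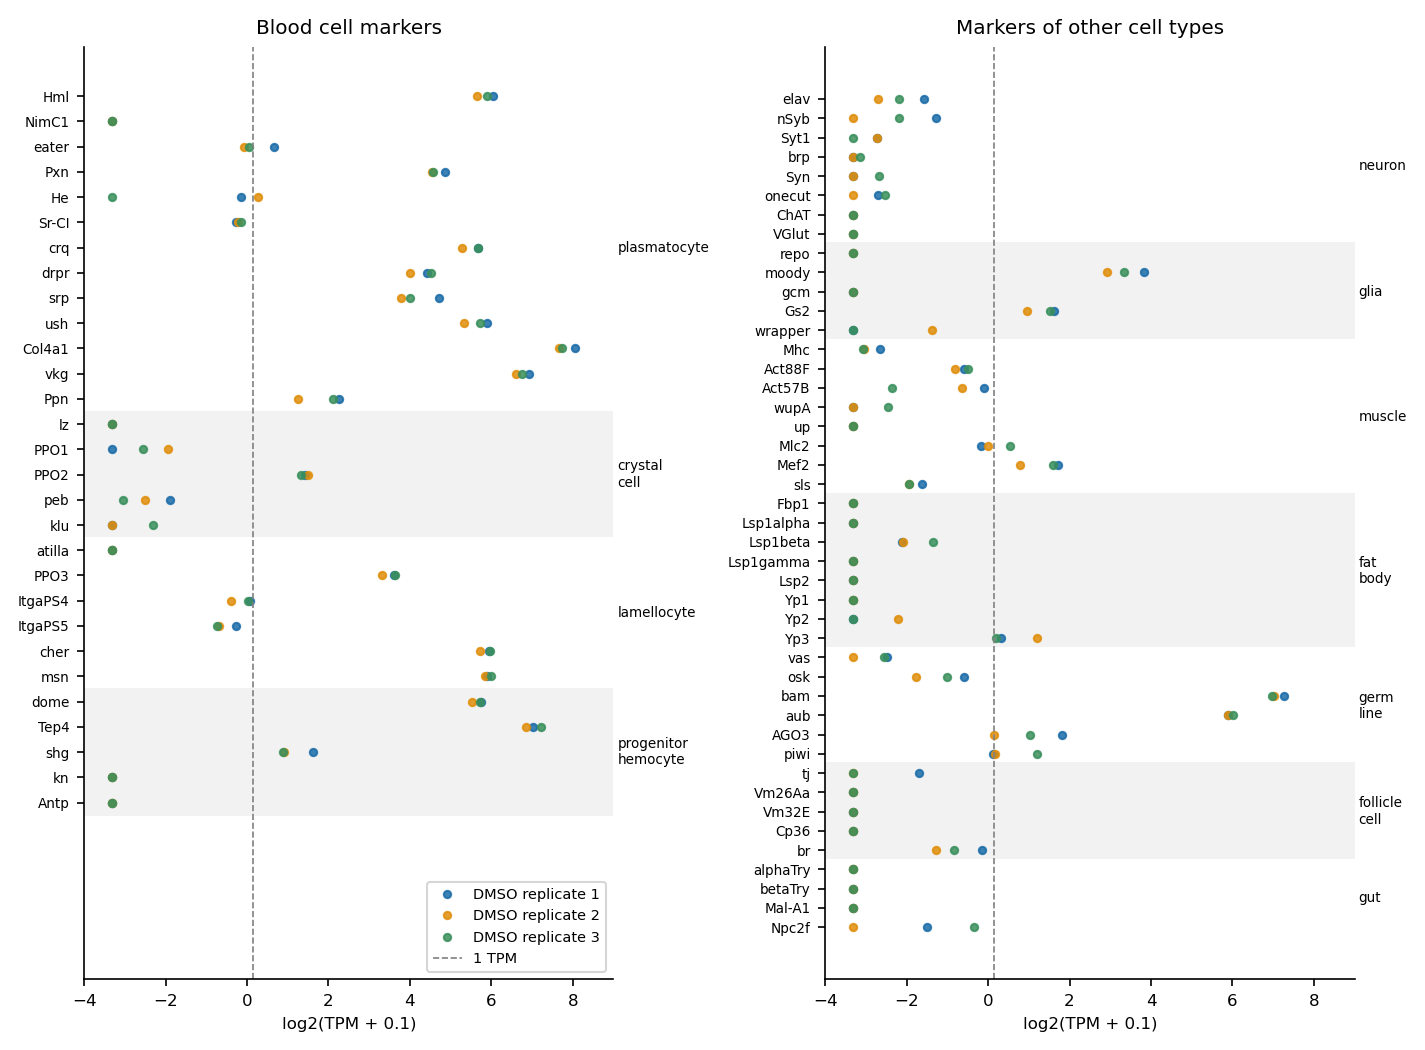
Level of each marker gene as log2(TPM + 0.1) in the 3 DMSO libraries (points), with blood cell markers on the left and markers of other cell types on the right; the dashed line is 1 TPM. Hml, crq, Col4a1 and vkg lie far above the line and NimC1, lz and atilla lie at 0 counts, while bam and aub are the 2 high points on the right.

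The identity factors of the lists ranged from high to silent. Of the GATA factors, srp stood at 26.1, 13.6 and 15.8 TPM, and pannier (pnr), a GATA factor known from heart and dorsal epidermis, was higher at 104.4, 64.9 and 76.4 TPM. The ratio of pnr to srp was 4.54 ± 0.464 (SD, n = 3). GATAd was just above the limit at 3.35, 1.33 and 1.77 TPM, GATAe was low at 1.44, 0.695 and 1.16 TPM, and grn had 0 counts. All 4 RUNX family genes were silent. All 8 Hox genes were silent, 7 of them with 0 counts and Abd-B with 1 count in total. The zinc-finger cofactor ush, which binds GATA factors, stood at 59.4, 40.0 and 52.3 TPM.

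Immune sensing genes were partly on. Of 13 peptidoglycan recognition genes, 7 were on, near the 47.5% of all protein-coding genes. The highest was the Toll pathway sensor PGRP-SA at 50.8, 66.8 and 66.4 TPM. The Imd pathway receptor PGRP-LC followed at 27.7, 25.7 and 24.0 TPM. The amidases PGRP-SC1a and PGRP-SC1b had 0 counts and PGRP-LB had 1 or 2 counts per library. Only Tl of the 7 Toll receptor genes analysed here was on, at 1.55, 1.29 and 1.37 TPM. Antimicrobial peptide genes, the outputs of both pathways, were on at low levels in 11 of 14 cases. DptB was the highest at 43.6, 38.7 and 40.0 TPM, and CecA1 ranged from 7.94 to 20.5 TPM. All 7 lysozyme genes were silent.

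In the other immune families few members carried the level. Of 12 Nimrod genes 3 were on, namely drpr, NimC4 at 8.12, 9.47 and 11.6 TPM and NimB3 at 5.39, 2.81 and 1.74 TPM. Of 11 class B and C scavenger receptors, crq and pes were on. Of the thioester proteins Tep4, Tep2 and Mcr were on and Tep1 had 0 counts. The integrin beta chain mys reached 185.6, 98.9 and 121.0 TPM, and its alpha partner mew 18.0, 8.55 and 10.4 TPM. Replicate 1 was the highest library for both integrin genes.

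Signalling receptors were unequally expressed. The PDGF/VEGF receptor Pvr was the highest of 10 receptor tyrosine kinases, at 214.8, 155.2 and 185.9 TPM. Its ligand Pvf2 was on at 112.7, 78.8 and 76.7 TPM, against 5.04 ± 0.979 TPM (SD, n = 3) for Pvf1. The EGF receptor gene Egfr had 5, 6 and 3 counts, although its ligand gene spi stood at 270.2, 202.8 and 247.8 TPM. The pattern of an expressed receptor with its ligand thus held for Pvr and Pvf2 and not for Egfr and spi.

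Of 8 JAK-STAT genes 7 were on. The receptor dome, the kinase hop (16.9, 9.43 and 11.9 TPM), the factor Stat92E (26.9, 15.7 and 18.9 TPM) and the feedback inhibitor Socs36E (34.6, 26.3 and 32.6 TPM) were all present. The ligand upd3 was close to the limit at 1.05, 1.51 and 1.31 TPM, and upd1 had 0 counts. Of 7 Wnt genes, Wnt5 alone was on, at 4.84, 2.47 and 3.92 TPM. The BMP ligand gbb stood at 137.7, 150.1 and 150.4 TPM, whereas dpp had 0, 0 and 5 counts. The Notch target E(spl)mbeta-HLH stood at 131.4, 117.5 and 83.5 TPM, and E(spl)m8-HLH had 0 counts. Of 8 insulin-like peptides, Ilp6 alone was on, at 7.66, 5.73 and 5.03 TPM.

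Of 21 nuclear receptors 8 were on, beside 47.5% of all protein-coding genes. The highest were Hr78 at 54.6, 48.0 and 52.7 TPM, Hnf4 at 36.8, 29.2 and 36.5 TPM, and usp at 28.6, 21.0 and 22.7 TPM. The ecdysone receptor EcR, the partner of usp, was low at 1.41, 0.734 and 0.993 TPM, from 78, 39 and 61 counts. That class depends on the exonic length, which joins all annotated transcripts of a gene. The developmental receptors tll, svp, kni and eg had 0 counts.

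The dosage compensation genes, which raise X-linked transcription in male flies, were on. The roX noncoding RNAs guide that complex, and lncRNA:roX2 stood at 155.2, 135.5 and 140.1 TPM while lncRNA:roX1 had 6, 0 and 0 counts. The male-specific subunit msl-2 stood at 11.9, 8.07 and 10.9 TPM. The female switch Sxl was low by its length-scaled level, at 1.56, 1.32 and 0.915 TPM from 80, 65 and 52 counts, and dsx had 0 counts.

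Families of tissue-specific genes were nearly all silent. Of 60 odorant receptor, 60 gustatory receptor and 66 ionotropic receptor genes, 55, 55 and 59 were silent. The exceptions were few. The taste receptor Gr61a was on at 7.21, 10.2 and 13.2 TPM with no overlapping gene. The ionotropic receptor Ir76a stood at 26.9, 24.9 and 35.7 TPM, and it overlaps 1 gene on the other strand. The cuticle protein family had 62 of 70 members silent, and Cpr65Az alone was on, at 5.24, 3.63 and 3.82 TPM. All 11 trypsins and all 15 accessory gland peptides were silent. Of 9 chorion genes, Cp18 alone was on, at 4.7, 5.18 and 1.5 TPM.

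Detoxification families were in between. Of 35 glutathione S-transferases 25 were on, led by GstD1 at 1181.1, 1182.7 and 1029.2 TPM. Of 85 cytochrome P450s 24 were on, led by Cyp6a20 at 118.4, 87.3 and 94.5 TPM. Of 28 serpins, inhibitors of proteases, 10 were on, led by Spn88Ea at 274.8, 277.3 and 283.2 TPM. Spn88Ea hardly varied, with an SD of 4.35 TPM (n = 3).

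**Figure D3:**
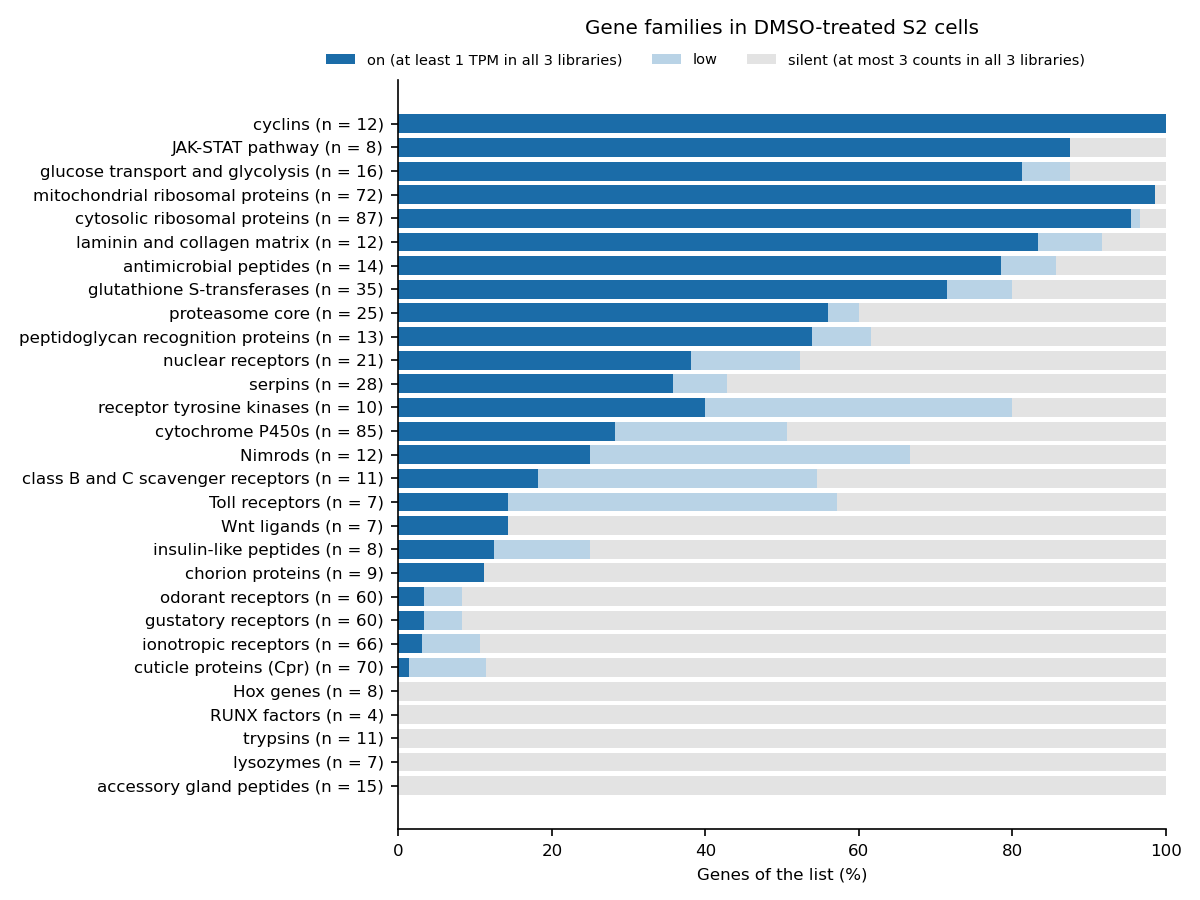
Share of the genes of each family (%, horizontal axis) that were on, low or silent in the 3 DMSO libraries, with the number of genes of each family beside its name. All 12 cyclins were on and all 8 Hox genes were silent, with the immune and detoxification families between them.

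Where a family has several copies, S2 cells used some and not others. Of the actins, the cytoplasmic Act5C and Act42A were high, with a ratio of 1.48 ± 0.0973 (SD, n = 3), and the 4 muscle actins stayed at or below 2.44 TPM in every library. Of the tubulins, alphaTub84B exceeded alphaTub84D by 14.8 ± 1.06 times (SD, n = 3), and the testis gene betaTub85D had 0, 0 and 1 counts. Both gamma-tubulins were on. The ovary-enriched gammaTub37C stood at 71.0, 66.5 and 76.6 TPM and gammaTub23C at 51.2, 48.3 and 51.2 TPM, so the germline copy was the higher in all 3 libraries.

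The same held for translation. The cap-binding factor eIF4E1 stood at 231.7, 182.7 and 193.8 TPM and eIF4E6 at 11.8, 9.53 and 12.7 TPM, while eIF4E3, eIF4E4, eIF4E5 and eIF4E7 had 0 counts. The elongation factor eEF1alpha1 exceeded eEF1alpha2 by 2497.4 ± 433.1 times (SD, n = 3). Ribosomal protein duplicates split into groups. RpL10Aa, RpS28a and RpL7-like had 0 counts. RpS19b, a germline copy, was on at 130.7, 131.9 and 142.8 TPM, and its partner RpS19a was 48.2 ± 2.32 times higher (SD, n = 3). RpS5b was on at 11.7, 11.2 and 9.01 TPM, with RpS5a 451.9 ± 67.3 times higher (SD, n = 3). RpS14a and RpS14b are near-identical, so how their reads were divided is uncertain.

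All 14 standard subunits of the proteasome core were on, with means from 51.8 to 893.8 TPM. Of its 11 duplicate copies, 10 were silent and Prosbeta2R2 was low. In glycolysis Gapdh1 and Gapdh2 were used about equally, with a ratio of 1.19 ± 0.0269 (SD, n = 3). The pyruvate kinase PyK was the highest glycolytic gene at 535.4, 515.5 and 512.8 TPM, and the hexokinase Hex-C and the mutase Pglym87 had 0 counts. All 12 cyclins were on, led by the mitotic CycB at 128.9, 97.8 and 106.3 TPM.

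Of the Argonaute proteins, which bind small RNAs, AGO2 of the siRNA pathway was the highest at 302.4, 231.0 and 264.2 TPM. The microRNA partner AGO1 stood at 4.77, 2.03 and 2.79 TPM and overlaps 2 genes on the other strand. The exonic length used here joins all annotated transcripts of a gene, and which of them were made was not tested. The piRNA proteins piwi (0.993, 1.03 and 2.21 TPM) and AGO3 (3.39, 0.998 and 1.93 TPM) were low, unlike aub.

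**Figure D4:**
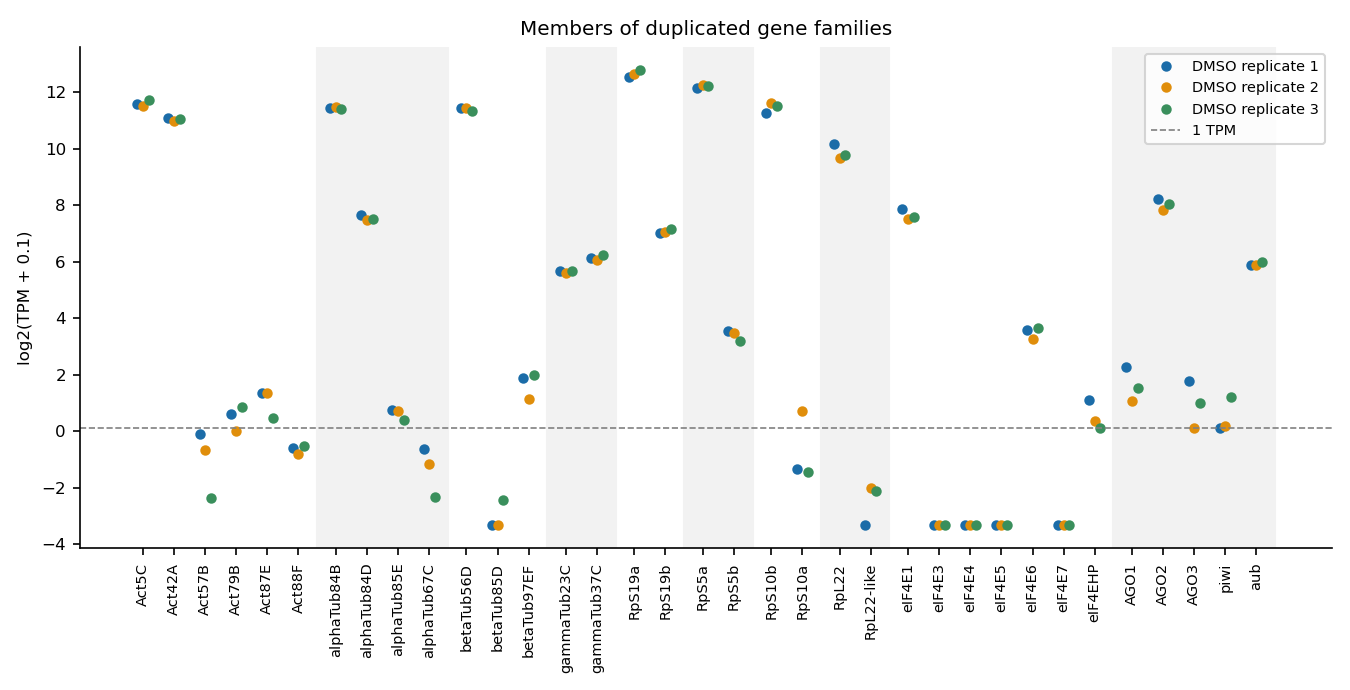
Level of each family member as log2(TPM + 0.1) in the 3 DMSO libraries (points), with neighbouring families shaded in turn and 1 TPM as a dashed line. In most families 1 or 2 copies stand far above the others, while gammaTub37C and gammaTub23C differ by 1.38 to 1.5 times.

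The 3 libraries resembled each other for most genes. Among 5744 genes with a mean of at least 10 CPM (scaled with TMM factors), the highest library exceeded the lowest by a median of 1.23-fold, and 4905 genes (85.4%) stayed under 1.5-fold. A range of at least 2-fold was found for 117 genes (2.04%). The same genes gave 141 (2.45%), 276 (4.81%) and 92 (1.6%) such ranges within the groups at 25, 50 and 100 µmol/L. Of the 117 genes, 112 were highest in replicate 1, 5 in replicate 2 and 0 in replicate 3. Without replicate 1 the count was 7, without replicate 2 it was 52 and without replicate 3 it was 73. The difference thus lay mainly between replicate 1 and the others, and the SD over genes of the log2 difference was 0.367 for replicates 1 and 2 against 0.243 for replicates 2 and 3. The title numbers of the 3 libraries place each in a different run of numbers, whose meaning is not stated, so library and run cannot be told apart.

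The deviations followed transcript length. The genes were split into 5 groups of equal size by exonic length. In the longest group (4068 to 69810 bases), the median deviation from the DMSO mean was 0.22 in replicate 1, -0.19 in replicate 2 and -0.01 in replicate 3 on the log2 scale. In the shortest group it was -0.1, 0.13 and -0.03. Of the 117 genes, 75 belonged to the longest group, which is 6.59% of its genes against 0.616 to 1.5% in the other 4 groups of equal size. Ribosomal protein genes, which are short, were highest in replicate 2 for 73 of 82 genes. Their median deviations were -0.19, 0.15 and 0.03, and -0.11, 0.05 and 0.06 after length was adjusted for, so part of them remained. Matrix genes, most of which are long, were highest in replicate 1 for 9 of 10. Their median deviations were 0.17, -0.13 and -0.04, and -0.06, 0.06 and -0.02 with the adjustment. RNA integrity values were not analysed here, and the part of RNA quality was not tested.

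Another set of differences did not follow length. The 10 mitochondrial genome genes above 10 CPM were all highest in replicate 1, with median deviations of 0.52, -0.11 and -0.43, and of 0.6, -0.21 and -0.42 after length was adjusted for. The Hsp70 family deviated by 0.4, 0.07 and -0.47, and by 0.41, 0.1 and -0.49 with the adjustment. Its summed level was 9997.4, 7589.8 and 5856.8 TPM. Heat shock genes were 4 of the 12 genes with the largest ranges. Hsp67Bc had 40.4, 30.6 and 6.72 CPM, Hsp27 had 883.5, 599.7 and 326.3 CPM, and Hsp70Ba had 1269.0, 781.6 and 437.3 CPM. Hsp70Bc had 149.4, 121.1 and 52.6 CPM. All 4 were highest in replicate 1 and lowest in replicate 3. Their levels also differed between the groups at 25, 50 and 100 µmol/L. The means there were 4.32, 59.7 and 29.4 CPM for Hsp67Bc and 252.3, 671.3 and 609.4 CPM for Hsp27. They were 148.4, 1219.5 and 605.6 CPM for Hsp70Ba and 38.0, 126.0 and 84.6 CPM for Hsp70Bc. Hsp70Ba and Hsp70Bc are near-identical copies, so their shares are uncertain.

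The widest range of all was in lncRNA:alphagamma-element:CR32865, a noncoding RNA between the Hsp70 copies of 3R (12475336-12478267). It had 44.6, 15.0 and 5.67 CPM, a range of 2.92 on the log2 scale. Within the groups at 25, 50 and 100 µmol/L its range was 0.25, 0.93 and 0.56. Between them it differed widely, with means of 9.07, 53.5 and 23.1 CPM. The TMPyP4 libraries spanned 8.51 to 72.2 CPM, so a wide spread was not particular to DMSO. Bsg had a range of 2.01 in DMSO and of 2.08, 2.03 and 2.62 in those groups, and Hsp70Ba had 1.54 in DMSO and 1.68 at 25 µmol/L. Further genes with large ranges were Bsg, Graf, CG3176, CG10600, mam and CG31224. Of these, CG3176 was highest in replicate 2, with 17.3, 22.4 and 7.77 CPM, and the other 5 were highest in replicate 1. Mastermind (mam), the Notch coactivator, had 17.5, 6.93 and 6.09 CPM.

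**Figure D5:**
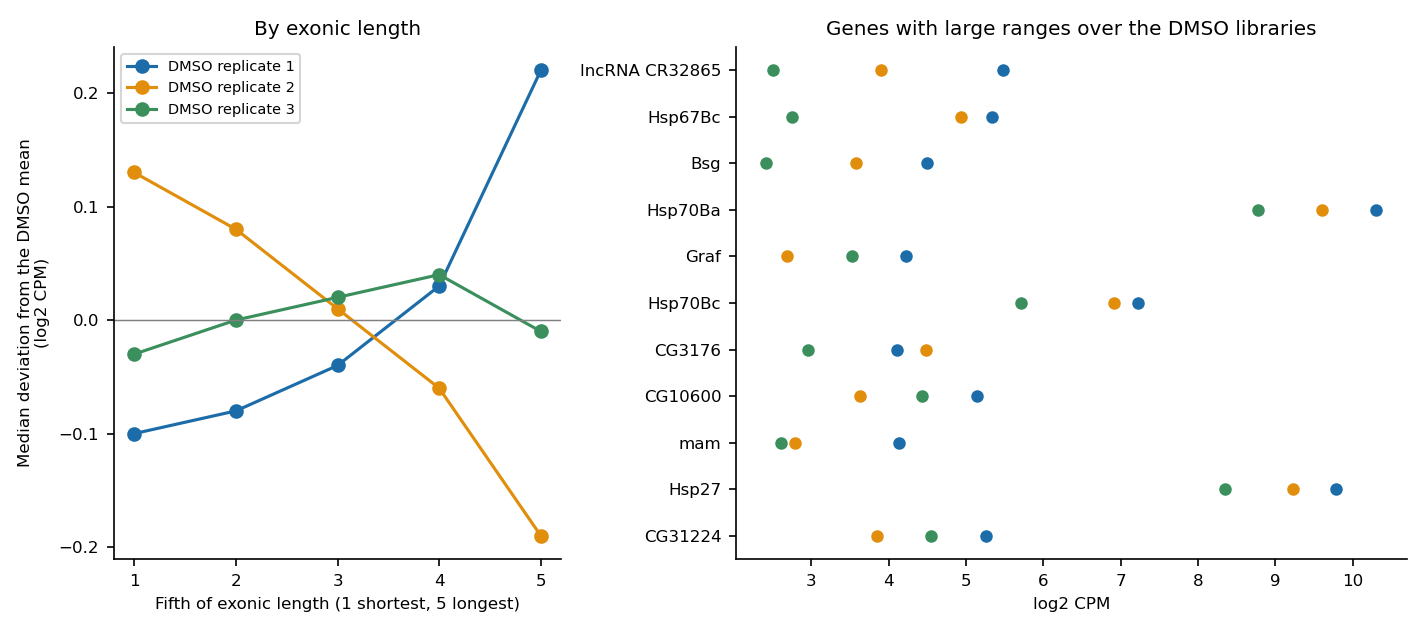
Left, median deviation of each DMSO library from the mean of the 3 (log2 CPM) for genes in 5 equal groups of exonic length, from shortest to longest. Right, log2 CPM in the 3 libraries (same colours) of 11 genes with large ranges; replicate 1 rises to 0.22 and replicate 2 falls to -0.19 in the longest group, and replicate 1 is the highest library for 10 of the 11 genes.

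Set against the 9 TMPyP4 libraries, the control libraries differed in gene length as well. The 2278 longest of 11377 genes detected in the series (at least 3633 bases of exon) took 15.7, 12.2 and 14.1% of the counts in DMSO. The TMPyP4 libraries had 8.81 to 12.1%, so the groups did not overlap. The means were 14.0 ± 1.74% (SD, n = 3) and 11.3 ± 1.05% (SD, n = 9), and an exact two-sided permutation test over the 220 splits gave p = 0.00455, the smallest they can give, or 0.0182 adjusted over 4 such tests. Without DMSO replicate 1 the difference was 1.89 percentage points with an exact p of 0.0727. Mitochondrial genome genes took 1.59 ± 0.559% in DMSO and 2.36 ± 0.547% with TMPyP4 (SD, exact permutation p = 0.0682, adjusted 0.136). The unadjusted exact p was 0.0364 without DMSO replicate 1, 0.145 without DMSO replicate 2 and 0.255 without DMSO replicate 3. It was 0.0485 without replicate 1 at 25 µmol/L and 0.0364 without replicate 3 at 50 µmol/L. Without any other TMPyP4 library it was 0.0667 to 0.0909. Without the 10 most abundant genes, the difference of -0.774 percentage points became -0.141 (unadjusted exact p = 0.141). Neither the share of ribosomal protein genes (exact permutation p = 0.309, adjusted 0.412) nor the number of genes detected at a common depth (8577.7 ± 70.0 against 8629.8 ± 169.2, exact permutation p = 0.595) passed the test.

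Gene by gene, the DMSO libraries were compared with the mean of the 3 TMPyP4 groups by edgeR's quasi-likelihood test with Benjamini-Hochberg adjustment, over 7328 genes. Of these, 720 (9.83%) passed an adjusted p of 0.05, of which 500 (6.82%) were higher in DMSO and 220 (3.0%) lower. The median difference of all tested genes was -0.02 on the log2 scale. The count was 174 without DMSO replicate 1, 325 without replicate 3 and 1081 without replicate 1 at 50 µmol/L. With an offset for gene length it was 266, of which 130 were higher in DMSO, and with the run of title numbers as a factor it was 89. All differences below are log2 values, DMSO minus TMPyP4, from this test.

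Of the plasmatocyte, matrix and epithelial marker genes tested, many were higher in DMSO. Of 11 plasmatocyte markers tested, 7 were higher and 0 lower, with a median of 0.59, against 6.82% of all genes. The number higher was 3 without DMSO replicate 1, 2 with the length offset and 3 with the run as a factor. Among the 7 was eater, at 1.18 (adjusted p = 0.0455), a call kept in only 2 of 18 alternative settings. Hml had 472.9, 412.8 and 451.0 CPM in DMSO and 171.4 to 324.5 CPM in the TMPyP4 libraries, with no overlap. Its difference was 0.89 (SE 0.137, adjusted p = 0.00107) and was 0.20 with the length offset, where it was no longer called. For srp the difference was 0.88 (adjusted p = 0.0192), and 0.61 (adjusted p = 0.21) without DMSO replicate 1. The receptor crq did not pass, at 0.01 (adjusted p = 0.962).

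Some markers of other cell types were also higher in DMSO. Of 6 epithelial marker genes tested, 3 were higher in DMSO and 0 lower, with a median of 0.67, against 6.82% of all genes higher. The number higher was 1 without DMSO replicate 1 and 1 with the run as a factor, and 1 was higher and 1 lower with the length offset. The scaffold gene dlg1 had 31.2, 25.6 and 17.0 CPM in DMSO and 5.6 to 13.2 CPM with TMPyP4, a difference of 1.35 (SE 0.228, adjusted p = 0.00187). It was called under all 18 alternative settings, with a difference of 0.67 under the length offset. The apical determinant crb differed by 0.8 (adjusted p = 0.0102) and scrib by 0.47 (adjusted p = 0.019). Without DMSO replicate 1 these were 0.53 (adjusted p = 0.153) and 0.29 (adjusted p = 0.234), and with the length offset 0.26 and -0.44. The glial marker moody differed by 0.73 (adjusted p = 0.0431), a call kept in 7 of the 18 settings and lost without DMSO replicate 1 (0.52, adjusted p = 0.312), without DMSO replicate 3 (0.77, adjusted p = 0.112) and without any 1 of 7 TMPyP4 libraries (0.67 to 0.75). The muscle gene sls differed by 1.47 (adjusted p = 0.0215), by 1.35 (adjusted p = 0.131) without DMSO replicate 1, by 1.56 (adjusted p = 0.0632) without DMSO replicate 3 and by -0.06 with the length offset. The part of other cell types in the plasmatocyte result was not tested.

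In the matrix list 7 of 10 genes tested were higher in DMSO and 0 lower, with a median of 0.72, against 6.82% of all genes higher. The number higher was 3 with the length offset and 4 with the run as a factor. The collagen gene vkg had 484.4, 443.5 and 458.3 CPM in DMSO and 189.1 to 361.8 CPM with TMPyP4. Its difference of 0.79 (SE 0.111, adjusted p = 0.000533) was called under all 18 alternative settings, as was that of Col4a1, 0.83 (SE 0.131, adjusted p = 0.00136). With the length offset the differences were 0.39 (adjusted p = 0.0471) for vkg and 0.45 (adjusted p = 0.0451) for Col4a1. The perlecan gene trol had 52.6, 31.0 and 36.7 CPM in DMSO and 10.9 to 20.9 CPM with TMPyP4, a difference of 1.37 (SE 0.162, adjusted p = 0.000165). With the length offset its difference was 0.35 (adjusted p = 0.153). The laminin gene LanA had a difference of 0.81 (adjusted p = 0.00141), and 0.10 with the length offset. SPARC, a short and abundant collagen-binding matrix gene, had 1826.1, 2104.8 and 1811.2 CPM in DMSO, within the 1655.5 to 2256.3 CPM of the TMPyP4 libraries, and did not pass (adjusted p = 0.997). Col4a1, vkg, Pxn and Ppn stand in both lists. Both lists hold many long genes, and the shift in long transcripts described above moves with them. Its part was tested only through that offset.

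Among the abundant genes, 1 of the top 25 and 2 of the 25 of other kinds were called, against 9.83% of all genes tested. Of the top 25, mt:lrRNA alone was called, at -0.74 (SE 0.224, adjusted p = 0.0472), with 14363.5, 9853.4 and 7241.6 CPM in DMSO and 11429.1 to 23399.4 CPM with TMPyP4. That call was kept in 7 of 18 alternative settings and was lost without DMSO replicate 2 (-0.68, adjusted p = 0.128) and without DMSO replicate 3 (-0.53, adjusted p = 0.246). It was also lost without replicates 2 or 3 at 25, replicate 2 at 50 and replicates 2 or 3 at 100 µmol/L, where it lay between -0.65 and -0.76. Of the 25 abundant genes of other kinds, 2 were lower in DMSO and 0 higher. Hsp83 differed by -0.49 (SE 0.12, adjusted p = 0.0159), by -0.42 (adjusted p = 0.114) without DMSO replicate 3 and by -0.4 (adjusted p = 0.133) with the run as a factor. The annexin AnxB9 differed by -0.37 (SE 0.0916, adjusted p = 0.018), by -0.31 (adjusted p = 0.134) without DMSO replicate 1, by -0.38 (adjusted p = 0.076) without DMSO replicate 3 and by -0.33 (adjusted p = 0.141) with the run as a factor. Of 83 ribosomal protein genes tested, 3 were lower and 0 higher, against 3.0% lower in the background, and the number lower was 0 to 6 with any 1 library left out. Of 26 glutathione S-transferases tested, 5 were lower in DMSO, against 3.0% of all genes. The number lower was 2 without DMSO replicate 3, 3 without DMSO replicate 1 and 9 without DMSO replicate 2. It was 1 with the length offset and 1 with the run as a factor. Of 149 long noncoding RNAs tested, 11 were lower and 2 higher, against 3.0% and 6.82% of all genes. The number lower was 6 without any 1 of the 3 DMSO libraries, 7 with the length offset and 0 with the run as a factor.

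AGO1, CycG and roX2, given next, were picked from 43 named genes that were called. Of 5 Argonaute genes tested, 3 were higher in DMSO and 0 lower. The number higher was 2 with the length offset and 0 with the run as a factor. Of 12 cyclins tested, 2 were higher and 1 lower. Of 10 dosage compensation and sex determination genes tested, 0 were higher and 1 lower. Among all genes 6.82% were higher and 3.0% lower. AGO1 was higher in DMSO by 1.88 (SE 0.313, adjusted p = 0.00167). It had 24.1, 11.8 and 15.0 CPM against 2.01 to 8.16 CPM with TMPyP4, and the groups did not overlap. CycG, an atypical cyclin, was higher by 1.11 (SE 0.163, adjusted p = 0.000718), with 90.7, 51.5 and 63.9 CPM against 22.4 to 44.1 CPM, and was called under all 18 settings. The dosage compensation RNA lncRNA:roX2 was lower by -0.57 (SE 0.1, adjusted p = 0.0023), with 124.4 to 129.7 CPM in DMSO and 161.4 to 238.9 CPM with TMPyP4. The call of roX2 was kept in 17 of the 18 settings, and so was that of AGO1, each lost with the run of title numbers as a factor, where the difference was 1.74 (adjusted p = 0.0591) for AGO1 and -0.53 (adjusted p = 0.0525) for roX2. Of 13 glycolysis genes tested, 2 were lower and 0 higher, against 3.0% and 6.82% of all genes. The 2 were Ldh (-1.2, adjusted p = 0.00748) and the sugar transporter Tret1-1 (-1.0, adjusted p = 0.00585), named after their values were seen. Ldh had 40, 26 and 64 counts in DMSO and Tret1-1 had 99, 63 and 95. Whether these 2 calls hold under the alternative settings is not reported here.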

How the data were processed

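Raw read counts per gene, in whole numbers, were deposited by the authors with 1 column per library. Per the submitters' processing notes, the tools were FastQC 0.11.8, MultiQC 0.9, HISAT2 2.0.5, SAMtools 1.7 and HTSeq 0.9.1, and the build was dm6. Whether counting used the strand is not given in the sources used here. The 5 entries for reads outside genes were left out and made up 2.72 to 3.64% of a library.

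Of 17494 identifiers, 17358 matched the Ensembl annotation BDGP6.54, which gave names, positions and exonic lengths. The 136 unmatched held 1.2% of the DMSO counts. The genes nos, esg, betaTub60D, 18w, scb, Dl and Med of the lists were not analysed here.

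DMSO was compared with the mean of the 3 TMPyP4 groups in edgeR 4.0.16 (R 4.3.3; glmQLFit, glmQLFTest, TMM factors, filterByExpr with a minimum count of 10 and a minimum total of 15), over all 12 libraries (4669194 to 9662038 gene counts each). The median SE was 0.131 on the log2 scale. On simulated counts with 198 changed genes of 7253, the fit recovered 85.8% of 2-fold and 98.9% of 4-fold changes, and 7.61% of its calls were false. The simulated counts held no shift by gene length, no run effect and no difference between concentrations. That share of false calls is therefore not the one of the calls in the data. Single values per library were compared by exact permutation tests. DESeq2 1.42.0 and the other alternatives are given in the closing section.

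The DMSO libraries, the 61 gene lists and the tests were chosen with earlier results of these data known. Genes named are the 25 most abundant, the 12 with the largest DMSO range, all members of lists of up to 15 genes, and the 6 highest and the silent members of larger lists. EcR, RpS19b, RpS5b, RpS14a, RpS14b, mt:ND2, mt:srRNA, Ldh, Tret1-1 and the 25 abundant genes of other kinds were named after their values were seen. A few genes that meet the rule are not reported here.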

Additional observations from a re-analysis of the deposited data

How the results depend on the processing

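The counts of genes on and silent in DMSO stayed within 1.5 times of 6790 and 9103 under every alternative run, with 5637 genes on at a limit of 5 TPM and 7558 silent at 0 counts. The number of genes on in a list moved in 7, 23 and 10 of 61 lists at 0.5 TPM, 5 TPM and 1 CPM. The 720 genes that differed from TMPyP4 became 89 with the run of title numbers as a factor (74 higher in DMSO) and 266 with the length offset (130 higher and 136 lower, 48.9% higher against 69.4%). They became 174 to 1081 when 1 library was left out, 901 with DESeq2, 716 with DESeq2's size factors (75.1% higher) and 1079 with no filter on counts (77.8% higher). With the replicate number as a block the count was 750. Libraries of the same number had deviations correlated at -0.378 to 0.442, and those of different numbers at -0.383 to 0.362. The deviations are taken from the mean of 3 libraries and sum to 0 in each group. These correlations therefore cannot decide whether the numbers pair the samples. The calls of 43 named genes, Ldh and Tret1-1 not among them, were followed. Of these, 7 were kept with the run as a factor, 16 with the length offset and 16 without DMSO replicate 1. Without DMSO replicate 3, 26 were kept, and 36 to 43 were kept under the others. With the length offset Pvr was at -0.07, scrib at -0.44 and sls at -0.06. The differences of at least 2-fold among the DMSO libraries numbered 117, and 177 by plain library size, 46 with the length offset, 24 at 50 CPM or more and 7 to 73 with 1 library left out. The difference in the share of the longest genes was 1.89 to 3.62 percentage points with 1 library left out, and that of mitochondrial genome genes -1.09 to -0.554. The difference in genes detected at a common depth was -52.1 genes, -85.6 to -15.2 with 1 library left out, and 17.8 for genes with at least 5 counts (exact permutation p = 0.795). The cause of these changes was not tested. Genes under 3 counts in a library could not be told from absent ones.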
